A study of Mus musculus with 4 samples.

Results

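The olfactory receptor cluster on mouse chromosome 2 was described here through 3 histone methylation marks in fibroblasts. Its members are the 1000 tiles of 4 kb between positions 86000000 and 90000000 of chromosome 2 in the mm8 build, of 615613 such tiles on the autosomes. They are a fixed interval at the core of the cluster, taken with earlier results of these data known. All libraries came from MDER cells of the MDER 10T line, fibroblasts that carry a MyoD1 switched on by estrogen according to the series title. No estrogen treatment and no clone is named in the labels, which give 10% FCS (serum) for every library. Chromatin was immunoprecipitated with antibodies from Abcam against H3K4me3, H3K27me3 and H3K9me3 (1 library each), and 1 library of whole-cell extract (WCE), made without an antibody, is the control. With 1 library in each group there is no replicate spread, so every test below compares reads of libraries and not conditions, and every interval covers counting error only.

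Olfactory receptors are odorant receptors of the G-protein-coupled family, and their genes lie in tandem arrays of related members. Each mature olfactory sensory neuron transcribes just a single receptor gene, and the rest of the family is kept silent. H3K4me3 marks promoters that are active or rich in CpG. Polycomb complexes deposit H3K27me3 on genes that they repress, and heterochromatin carries H3K9me3. In mouse olfactory epithelium, silent receptor genes are known to carry H3K9me3, and the libraries used here show the region in fibroblasts instead.

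No gene table or genome of the mm8 build was used, so no tile was assigned to a gene and the label could not be checked against gene positions. In gene order, the RefSeq table for GRCm38.p6 holds a run of 222 olfactory receptor genes on chromosome 2, of 1110 in that genome. The run is broken by 3 other protein-coding genes (Fads2b, Pramel7 and Pramel6) and lies between Lrrc55 and Ptprj, which encodes a receptor-type tyrosine phosphatase. A promoter entry was found for 186 of the 222. To show what kind of sequence the cluster holds at gene starts, the 250 bases before the annotated start are printed for the first, the middle and the last receptor gene of the run that have an entry, and for both neighbours, from RefSeq (GRCm38.p6), each 5′ to 3′ on the gene's strand. Capitals mark each CG dinucleotide, which reads the same on both strands. Where a gene model holds only its coding exon, these bases lie before the coding start.
Olfr988: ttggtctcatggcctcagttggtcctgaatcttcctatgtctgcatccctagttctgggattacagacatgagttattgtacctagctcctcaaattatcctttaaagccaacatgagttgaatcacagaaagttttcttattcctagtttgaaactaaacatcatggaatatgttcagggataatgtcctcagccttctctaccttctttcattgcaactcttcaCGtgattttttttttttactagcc
Olfr1152: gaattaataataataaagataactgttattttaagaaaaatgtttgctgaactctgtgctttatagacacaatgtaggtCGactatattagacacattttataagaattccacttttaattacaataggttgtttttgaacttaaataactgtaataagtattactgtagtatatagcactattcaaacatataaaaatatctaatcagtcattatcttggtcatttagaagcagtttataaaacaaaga
Olfr1274: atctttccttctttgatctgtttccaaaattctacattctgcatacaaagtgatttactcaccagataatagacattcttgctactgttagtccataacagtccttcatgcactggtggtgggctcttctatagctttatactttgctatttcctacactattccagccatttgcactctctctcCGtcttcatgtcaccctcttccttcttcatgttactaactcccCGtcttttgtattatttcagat
Lrrc55: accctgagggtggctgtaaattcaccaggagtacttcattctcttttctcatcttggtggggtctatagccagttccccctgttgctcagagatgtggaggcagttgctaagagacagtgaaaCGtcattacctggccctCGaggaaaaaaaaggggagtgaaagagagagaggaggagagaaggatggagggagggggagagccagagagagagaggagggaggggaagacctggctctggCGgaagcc
Ptprj: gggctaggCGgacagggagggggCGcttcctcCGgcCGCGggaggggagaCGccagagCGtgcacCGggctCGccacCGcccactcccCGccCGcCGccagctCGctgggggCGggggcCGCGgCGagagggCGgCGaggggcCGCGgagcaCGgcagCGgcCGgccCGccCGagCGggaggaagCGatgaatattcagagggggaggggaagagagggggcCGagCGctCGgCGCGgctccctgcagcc
The shown receptor promoters hold 1, 1 and 2 CG dinucleotides, against 3 for Lrrc55 and 34 for Ptprj. Over the 187 promoter entries of the run the median was 1 CG, the highest count was 7, and 54.0% of entries had any. Over 31903 entries of genes other than olfactory receptors the median was 6 CG and 93.2% had any. At least 10 CG were found in 0 of the 187 entries of the run, in 0.131% of 761 entries of other olfactory receptor genes and in 38.9% of the entries of genes that are not olfactory receptors. The GC content had a median of 30.8% in the run and 52.8% in those genes. These sequences describe the gene family and carry no read of this series.

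All 4 libraries were sparse over the cluster. The analysis below uses reads with 1 reported position, kept once per position and strand and moved 60 bp along their strand, and scales libraries by their autosomal totals, which ran from 2101444 to 3086567 reads. The cluster held 698 H3K4me3, 970 H3K27me3, 1190 H3K9me3 and 1940 WCE reads. Per Mb that is 174.5, 242.5, 297.5 and 485.0 reads, where the other autosomal tiles had 1255.2, 1192.9, 854.3 and 1210.4 reads in the same order of libraries. The cluster's density was therefore 0.139 of that of the other autosomal tiles for H3K4me3, 0.203 for H3K27me3, 0.348 for H3K9me3 and 0.401 for WCE. The control itself was thus low in the cluster, and the marks are read against it below. Of 2378 autosomal megabases with at least 100 WCE reads, between 5.55% and 8.58% had fewer WCE reads than each of the 4 megabases of the cluster.

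**Figure D1:**
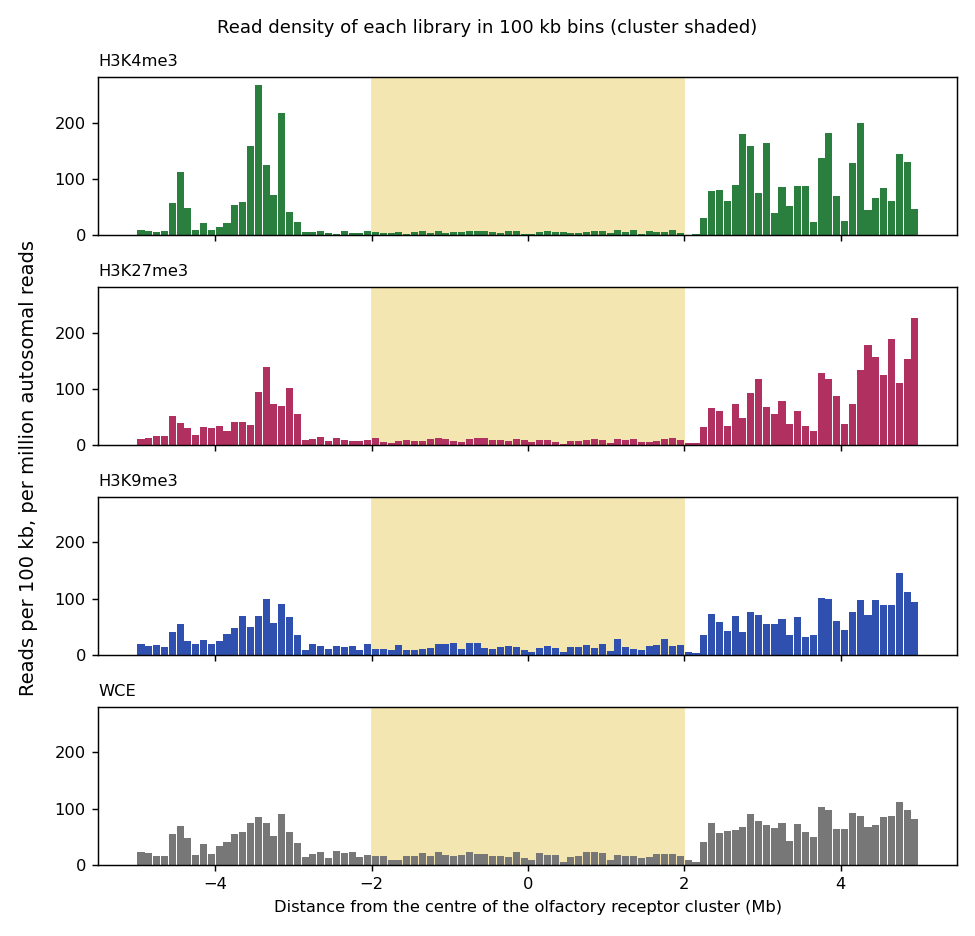
Reads with 1 position in 100 kb bins from 5 Mb below to 5 Mb above the cluster's centre, scaled by autosomal totals, 1 panel per library (bars are single bins, the cluster is shaded, no replicates). All 4 libraries are low across the shaded cluster, where WCE bins hold 16 to 69 reads, and both flanks hold bins with far more reads.

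The low density reached past the 4 Mb on both sides. Going down in coordinates, WCE counts per 100 kb bin were 43 in the bin starting at 85100001 and 116 in that starting at 85000001. Going up, they were 13 in the bin at 90100001 and 123 in that at 90200001. Bins with fewer WCE reads than the lower quartile of autosomal bins (70 reads) ran without a break over 46 bins, from 85600001 to 90200000, and the bin just below that run held 74. Bins as low as those of the cluster came back farther down, with 67, 63, 48 and 48 WCE reads in the bins from 83000001 to 83400000. Part of both 3 Mb flanks, from 83000001 to 86000000 and from 90000001 to 93000000, therefore looks like the cluster in the control library. Over the 46 bins the ratios to WCE were 0.341 for H3K4me3, 0.502 for H3K27me3 and 0.859 for H3K9me3. The 46 include all 40 bins of the cluster, so ratios close to those of the 4 Mb given next were largely fixed in advance. This run was chosen after the data were seen.

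H3K4me3 was the lowest of the 3 marks in the cluster when scaled by autosomal totals. Its 698 reads faced 1940 WCE reads, a ratio of 0.347 (95% exact interval 0.318 to 0.379; two-sided exact binomial test, Benjamini-Hochberg adjusted p over the 3 marks 1.58e-143). The ratio was 1.24 (1.21 to 1.27) over the flanks, with 12360 H3K4me3 and 9618 WCE reads. The cluster's ratio was 0.280 times that of the flanks (0.256 to 0.307; two-sided Fisher's exact test, p adjusted over 6 comparisons 3.84e-188) and 0.347 times that of the other autosomal tiles (0.318 to 0.378; 1.03e-143). The size of the drop depends on the scaling. Outside all tiles called for any mark, scaled by autosomal reads outside them, the ratio was 0.570, and it was 0.519 times that of the flanks. With the median of 100 kb bins as the scale, which raises every H3K4me3 log2 ratio by 0.73 and every H3K27me3 one by 0.26, it was 0.576.

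No tile of the cluster was called for H3K4me3. A tile was called at an adjusted p under 0.05 (one-sided exact binomial test against WCE, Benjamini-Hochberg over all tiles of chromosomes 1 to 19, X and Y) and a ratio of at least 2. This called 0 of 817 tested tiles in the cluster and 70 of 1384 in the flanks, where 2.33% of all tested tiles of the genome were called. No cluster tile reached an unadjusted p under 0.05 either, against 6.86% of tested flank tiles and 3.38% of the other autosomal ones. Cluster tiles held a mean of 0.698 H3K4me3 and 1.94 WCE reads, against 8.24 and 6.41 in the flanks. Fewer cluster tiles could reach such a p at that depth. The nearest called tiles lay 1136 kb below the cluster, at 84860001 with 71 H3K4me3 and 16 WCE reads (ratio 4.28, 2.46 to 7.89), and 380 kb above it, at 90380001 with 138 and 25 reads (5.33, 3.46 to 8.51). The 5.52 Mb between them was the 15th longest of 13136 distances between neighbouring called H3K4me3 tiles on the autosomes. The depth limits what a call can show: at 2 WCE reads, the median of a cluster tile, at least 16 H3K4me3 reads were needed, a ratio of 7.72, so weaker enrichment was not detectable in such a tile.

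The most H3K4me3 reads in any tile of the cluster was 5, a number held by 0.300% of its tiles. Of these, the tile at 87308001 had the largest excess over WCE, with 1 WCE read, and also held 8 H3K9me3 reads. The tiles at 87300001 and 89492001 followed in excess over WCE, each with 3 H3K4me3 and 0 WCE reads, too few for a ratio. In 100 kb bins, tested in both directions over 23407 autosomal bins, 36 of 40 cluster bins were below WCE and 0 above. On the autosomes 66.0% of bins were below and 19.4% above, so 36 of 40 below is over a high background. The count below was 18 (45.0%, against 16.2% of autosomal bins) with scaling by the median of bins and 13 (32.5%, against 14.0%) outside called tiles. The lowest bins started at 86400001 (7 H3K4me3 and 47 WCE reads, ratio 0.144, 0.0548 to 0.320), 89400001 (7 and 36, 0.188, 0.0704 to 0.427) and 87900001 (7 and 35, 0.193, 0.0723 to 0.441). The highest was that at 88400001 with 17 H3K4me3 and 16 WCE reads (1.03, 0.487 to 2.17), the bin with the fewest WCE reads in the cluster, and it fell to 0.410 when reads with 2 positions were added. The next highest, at 86300001 (18 and 25, 0.695, 0.357 to 1.33) and 89500001 (25 and 40, 0.603, 0.351 to 1.02), did not pass the test. With reads of 2 positions added, both passed as below WCE, at 0.454 (adjusted p 0.00414) and 0.515 (adjusted p 0.00803, exact binomial test over all autosomal bins).

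H3K27me3 was also low across the cluster, and more evenly so. Its 970 reads gave a ratio to WCE of 0.508 (0.469 to 0.548; adjusted p over the 3 marks 3.28e-70, exact binomial test). With the median of 100 kb bins as the scale the ratio was 0.607, and outside called tiles it was 0.521. The flanks had 10726 H3K27me3 and 9618 WCE reads (1.13, 1.10 to 1.16). The cluster's ratio was 0.448 times that of the flanks (0.413 to 0.487; Fisher's exact test, adjusted p 3.37e-86) and 0.507 times that of the other autosomal tiles (0.470 to 0.548; 2.33e-70). The flanks differed from each other, with 0.918 (0.874 to 0.964) on the side of lower coordinates and 1.25 (1.21 to 1.29) on the other, and the cluster lay below both, at 0.553 and 0.406 times their ratios.

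No tile of the cluster was called for H3K27me3, 0 of 839 tested, against 28 of 1401 in the flanks and a genome-wide share of 0.624%. None had an unadjusted p under 0.05, against 11.3% of flank tiles and 5.41% of the other autosomal ones. Cluster tiles held a mean of 0.970 H3K27me3 reads and flank tiles 7.15, so these shares compare tiles of unlike depth. The nearest called tiles were 968 kb below the cluster, at 85028001 with 20 H3K27me3 and 3 WCE reads (ratio 6.77, 2.01 to 35.6), and 684 kb above it, at 90684001 with 37 and 8 reads (4.69, 2.15 to 11.7). Of 3612 autosomal distances between neighbouring called tiles, 108 were longer than the 5.65 Mb here. At 2 WCE reads a call needed 18 H3K27me3 reads, a ratio of 9.14. The largest excesses in the cluster were 6 H3K27me3 against 2 WCE reads at 89116001 (3.05, 0.545 to 30.9) and 5 against 1 read at each of 87460001 and 87940001 (5.08, 0.568 to 240.0).

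All 40 bins of 100 kb had an H3K27me3 ratio under 1, as had 16186 of 23447 autosomal bins tested. Of the 40, 28 passed the test as below WCE, against 34.8% of autosomal bins. No bin was above WCE, against 15.7%. With scaling by the median of bins 14 were below (35.0%, against 15.1% of autosomal bins). The bins ran from 0.273 (14 H3K27me3 and 52 WCE reads, at 87100001) to 0.771 (19 and 25 reads, 0.402 to 1.46, at 86300001), with a median of 0.518. Close to the lowest were the bins at 86600001 (19 and 60 reads, 0.321) and 88300001 (18 and 52, 0.351), and close to the highest the first bin of the cluster (35 and 48, 0.740) and that at 87900001 (24 and 35, 0.696). The squared deviation of these bins from a common ratio was 0.806 times what counting alone gives, where it was 10.8 and 22.6 times in the flanks. For H3K27me3, the spread between parts of the cluster was thus no larger than counting error. In the cluster the same quantity was 1.46 for H3K4me3 and 2.01 for H3K9me3. In the lower and upper flank it was 31.6 and 23.3 for H3K4me3, and 2.39 and 3.47 for H3K9me3. Where ratios differ between bins, this quantity grows with the reads per bin. The flanks held more reads per bin on average, so cluster and flank values are not at like depth.

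H3K9me3 was slightly below the control. Its 1190 reads gave a ratio of 0.869 (0.808 to 0.935; adjusted p 1.40e-04, exact binomial test). The flanks, with 6359 H3K9me3 and 9618 WCE reads, had 0.937 (0.907 to 0.967). The cluster's ratio was 0.928 times that of the flanks, a log2 difference of -0.11 (-0.22 to 0.01) that did not pass Fisher's exact test (adjusted p = 0.0630), and 0.869 times that of the other autosomal tiles (0.809 to 0.934; adjusted p 1.65e-04). With the lower or the upper flank alone it was 0.970 (0.886 to 1.06) and 0.906 (0.835 to 0.984). With the median of 100 kb bins as the scale, the cluster's ratio to WCE was 0.920 (adjusted p 0.0245, exact binomial test). A rise of H3K9me3 over the whole cluster was therefore not seen in these libraries. The H3K9me3 library had few called tiles anywhere, 114 in the genome against 13533 for H3K4me3 and 3654 for H3K27me3. It therefore cannot show that the mark is absent from the cluster. Repeated positions, which were removed, made up 10.8% of H3K9me3 reads in the cluster against 8.38% in the other autosomal tiles, and 4.20% of WCE reads against 6.37%. With them kept, the ratio was 0.913.

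No H3K9me3 tile was called in the cluster (0 of 853 tested), and 1 of 1395 was called in the flanks, where the genome-wide share was 0.0195%. Unadjusted, 19 cluster tiles (2.23%) had a p under 0.05, against 2.37% of flank tiles and 3.61% of the other autosomal ones. These shares too compare tiles of unlike depth, with a mean of 1.19 H3K9me3 reads in the cluster and 4.24 in the flanks. At 2 WCE reads a call needed 18 H3K9me3 reads, a ratio of 12.8. The largest excess was a pair of adjoining tiles, with 11 H3K9me3 and 3 WCE reads at 89184001 (5.20, 1.37 to 29.0) and 9 and 3 reads at 89188001 (4.25, 1.06 to 24.4). The first of them was the only tile of the cluster called for any mark against a uniform background in place of WCE, a setting under which 6.25% of tested tiles of the genome were called for H3K9me3. The tile at 87308001, with 8 H3K9me3, 5 H3K4me3, 1 H3K27me3 and 1 WCE reads (H3K9me3 ratio 11.3, 1.52 to 503.0), lay between these in excess. The nearest called H3K9me3 tile above the cluster was at 92772001 (41 and 15 reads, 3.87, 2.10 to 7.53), and below it none was found before 25400001.

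H3K9me3 varied more than H3K27me3 along the cluster. In 100 kb bins, 1 of 40 was above WCE, against 5.53% of autosomal bins, and 0 were below, against 5.17%. The bin above was that starting at 86300001, with 38 H3K9me3 and 25 WCE reads (ratio 2.15, 1.27 to 3.72; adjusted p 0.0387, exact binomial test over all autosomal bins). Its reads were scattered, with at most 6 H3K9me3 reads in any of its 25 tiles, and it no longer passed the test with repeated positions kept (adjusted p 0.0557, same exact test). The bins at 89100001, which holds the pair of tiles above (59 and 52 reads, 1.61, 1.09 to 2.38), and 89700001 (58 and 58, 1.42, 0.968 to 2.08) came next and did not pass. The lowest were those at 86500001 (17 and 49, 0.492, 0.265 to 0.869), 86600001 (22 and 60, 0.520) and 88800001 (25 and 66, 0.537), and none of them passed the test. With repeated positions kept, that at 88800001 passed as below WCE (0.522, adjusted p 0.0419, exact binomial test).

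**Figure D2:**
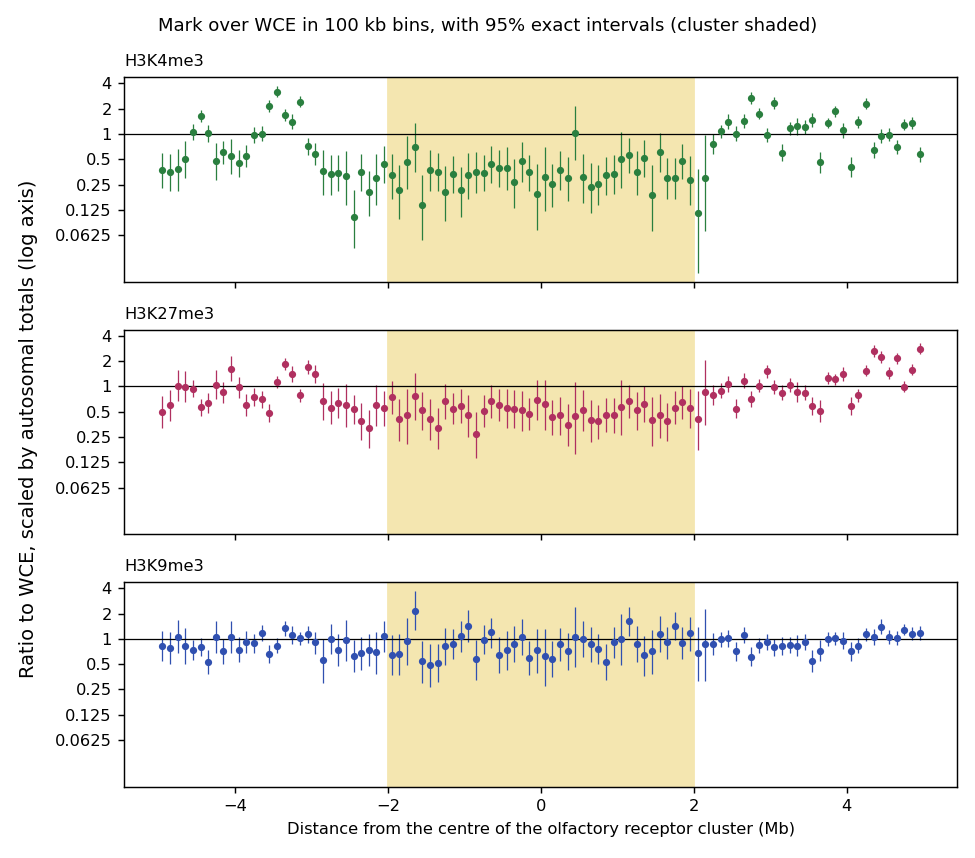
Ratio of each mark to WCE in 100 kb bins (log axis, scaled by autosomal totals) against the distance from the cluster's centre, 1 panel per mark, with 95% exact intervals and the cluster shaded. H3K4me3 and H3K27me3 bins of the cluster lie under 1, apart from 1 H3K4me3 bin at 1.03, while H3K9me3 bins lie on both sides of 1, from 0.492 to 2.15.

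By megabase, in order of coordinate, the H3K4me3 ratio was 0.309 (0.255 to 0.372), 0.357 (0.301 to 0.422), 0.321 (0.267 to 0.384) and 0.403 (0.339 to 0.478). These 4 intervals overlap, and the fourth megabase was highest. The H3K27me3 ratio was 0.530 (0.452 to 0.620), 0.523 (0.450 to 0.608), 0.439 (0.372 to 0.516) and 0.540 (0.461 to 0.632), with the third lowest and intervals that overlap. For H3K9me3 it was 0.801 (0.686 to 0.933), 0.868 (two-sided exact binomial test, unadjusted p = 0.0502), 0.767 (0.659 to 0.892) and 1.05 (0.909 to 1.21). The fourth megabase was the only one with an H3K9me3 ratio above 1, and its interval did not overlap that of the third. The fourth megabase had 462 WCE reads against 469 to 516 in the others, and whether this bears on its H3K9me3 ratio was not tested. With reads of 2 positions added, its H3K9me3 ratio was 1.03 and still the highest of the 4, while H3K4me3 was 0.402 there against 0.411 in the second megabase and H3K27me3 was 0.528 against 0.547 in the first.

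**Figure D3:**
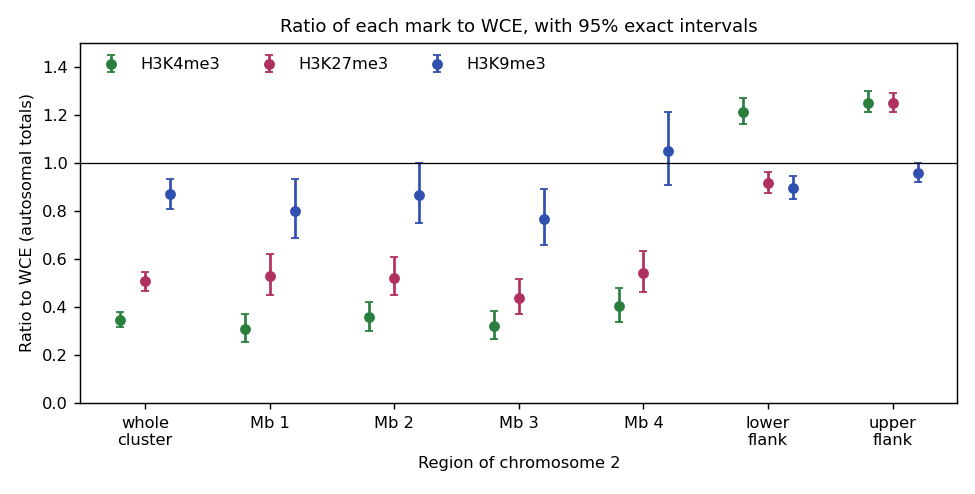
Ratio of each mark to WCE over the whole cluster, its 4 megabases in order of coordinate, and the 3 Mb on each side (points, with 95% exact intervals from counting). With scaling by autosomal totals, H3K4me3 is lowest in every part of the cluster, H3K27me3 next and H3K9me3 highest, while H3K4me3 is at 1.21 and 1.25 in the flanks.

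Set directly against each other, which leaves WCE out, the marks differed in the cluster in all 3 pairs. H3K9me3 exceeded H3K4me3 by a scaled ratio of 2.50 (2.28 to 2.75; exact binomial test, p adjusted over 3 pairs 9.69e-86), where the flanks had 0.756 (0.733 to 0.779). It was the higher of these marks in all 40 bins of 100 kb. H3K9me3 exceeded H3K27me3 by 1.71 (1.57 to 1.87; 1.96e-35), against 0.828 in the flanks, and was higher in 39 of 40 bins. H3K27me3 exceeded H3K4me3 by 1.46 (1.33 to 1.61; adjusted p 1.52e-14), against 0.913 in the flanks, and was higher in 35 of 40 bins. Outside called tiles the first ratio was 1.53 and the second 1.67, but the third turned to 0.914 (adjusted p = 0.0763, exact binomial test), so the order of H3K27me3 and H3K4me3 in the cluster depends on the scaling. Relative to the flanks, where no scaling enters, the ratio was 3.31 for the first pair (Fisher's exact test, p adjusted over 3 pairs 2.47e-131), 2.07 (1.89 to 2.26) for the second and 1.60 (1.45 to 1.77) for the third. The bin counts of the 3 pairs have no autosomal share beside them. The median autosomal bin had ratios to WCE of 0.570 for H3K4me3, 0.806 for H3K27me3 and 0.945 for H3K9me3. The order of the marks alone is thus not particular to the cluster.

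Reads in the cluster were thinly spread over tiles. H3K4me3 was at 0 in 54.3% of the 1000 tiles, H3K27me3 in 44.4%, H3K9me3 in 41.9% and WCE in 24.5%, against 26.0%, 18.9%, 20.1% and 12.9% of the other autosomal tiles. The highest tile held 5 H3K4me3, 7 H3K27me3, 11 H3K9me3 and 10 WCE reads, while 7.33% of the other autosomal tiles held at least 10 H3K4me3 reads. The variance of reads per tile was 1.24 times the mean for H3K4me3, 1.32 for H3K27me3, 1.78 for H3K9me3 and 1.58 for WCE, where pure counting gives 1. In the flanks these values were 57.9, 8.81, 3.72 and 3.89. H3K4me3 thus had the highest value of the 4 libraries in the flanks and the lowest in the cluster, where it also had the fewest reads. A WCE read but no H3K4me3 read was found in 360 cluster tiles, no H3K27me3 read in 283 and no H3K9me3 read in 272. Of cluster tiles with a WCE read, these were 47.7% for H3K4me3 and 37.5% for H3K27me3, against 17.9% and 10.5% in the other autosomal tiles. For H3K9me3 the share was also above the 11.9% of the other autosomal tiles. The reverse, a read of the mark but no WCE read, was found in 62, 84 and 98 cluster tiles. These shares compare tiles of unlike depth, and how far depth alone accounts for them was not tested. In 100 tiles no library had a read, a share of 10.0% against 8.02% of the other autosomal tiles. In 63 of the 100, none had a read with 2 positions either. The longest run of empty tiles in the cluster covered 40 kb, from 89008001 to 89048000. Longer ones lay in both flanks, of 44 kb in the lower and 80 kb in the upper flank.

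**Figure D4:**
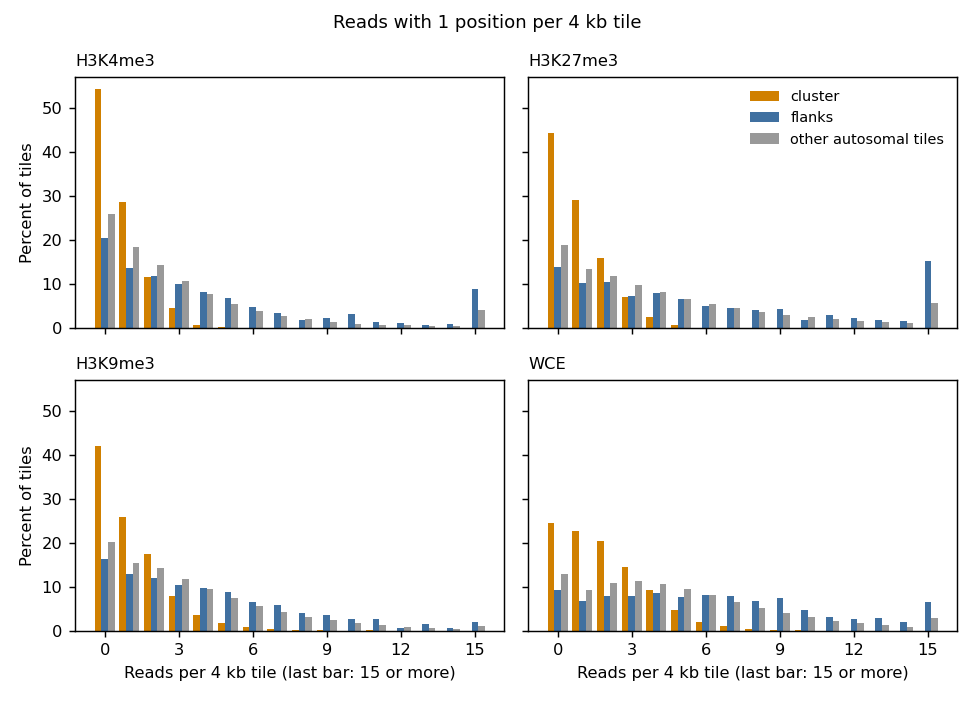
Share of 4 kb tiles by the number of reads with 1 position they hold, in the cluster (1000 tiles), its flanks (1500) and the other autosomal tiles, 1 panel per library; the last bar gathers 15 reads or more. Cluster tiles pile up at 0 to 3 reads in every library and none reaches 15.

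Reads with 2 reported positions showed the opposite density. Each such read was reported at 2 places of the genome and is listed at both, so its origin is not known. Tiles that share sequence share these reads, and a read with both places in the cluster is counted at each there. The cluster held 291 such H3K4me3 entries, 360 for H3K27me3, 441 for H3K9me3 and 679 for WCE. For every 100 reads with 1 position there were 41.7, 37.1, 37.1 and 35.0 entries in the cluster, against 2.99, 4.28, 5.52 and 4.51 in the flanks and 4.98, 6.02, 6.93 and 5.86 in the other autosomal tiles. The cluster took 0.388% of all autosomal WCE entries of this kind but 0.0652% of WCE reads with 1 position, and makes up 0.162% of the autosomal tiles. Sequence that occurs at 2 places was thus over-represented in the cluster. Where the other place lies was not looked up, so the label of the cluster as a tandem gene array was not checked.

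Against WCE, the entries with 2 positions again had H3K9me3 as the highest mark, while the intervals of H3K4me3 and H3K27me3 overlap. Because of the shared entries, the p-values of these tests are too small and the intervals in this paragraph too narrow. The ratio in the cluster was 0.488 for H3K4me3 (0.424 to 0.561; adjusted p 8.00e-26, exact binomial test), 0.525 for H3K27me3 (0.461 to 0.598; 9.14e-24) and 0.779 for H3K9me3 (0.689 to 0.879; 4.41e-05). Relative to the flanks it was 0.504 (0.415 to 0.613), 0.501 (0.417 to 0.602) and 0.803 (0.668 to 0.966), with p adjusted over the 3 marks of 9.05e-12, 3.91e-13 and 0.0207 by Fisher's exact test. H3K4me3 was less low in these entries than in reads with 1 position, by a factor of 1.41 (1.20 to 1.65), while the factor was 1.04 (0.892 to 1.20) for H3K27me3 and 0.896 (0.779 to 1.03) for H3K9me3. These factors use a separate scale for each kind of read. With the totals of reads with 1 position as the scale for both, they were 1.19 (1.01 to 1.40), 1.06 (0.913 to 1.23) and 1.06 (0.921 to 1.22). The interval for H3K4me3 there starts close to 1 and is too narrow, so a difference between the kinds of read is not settled. On that scale the H3K9me3 ratio was 0.920 and did not pass (adjusted p = 0.184, exact binomial test).

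No cluster tile was called from these entries for any mark, of 434 tested for H3K4me3, 453 for H3K27me3 and 451 for H3K9me3, where 0.514%, 0.0222% and 0.00514% of tested tiles of the genome were called. An unadjusted p under 0.05 was reached by 2 cluster tiles for H3K4me3 (0.461%, against 1.69% of the other autosomal tiles tested), 0 for H3K27me3 (against 0.709%) and 2 for H3K9me3 (0.443%, against 0.736%). The highest count of any library was in the tile at 87324001, with 16 H3K4me3, 2 H3K27me3, 6 H3K9me3 and 4 WCE entries. The tile at 87192001 held 11, 6, 14 and 6, and that at 86968001 held 11, 1, 1 and 3, in the same order of libraries. The tile at 86964001 held 9 H3K9me3 entries and 1 WCE entry. For H3K27me3 the highest count was 6, reached at 87192001, 87956001 and 88060001, where WCE had 6, 4 and 4. WCE was highest at 88244001, with 9 entries, at 86452001 with 8 and at 88112001 with 7. In the first 2 of these tiles WCE had 0 reads with 1 position.

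**Figure D5:**
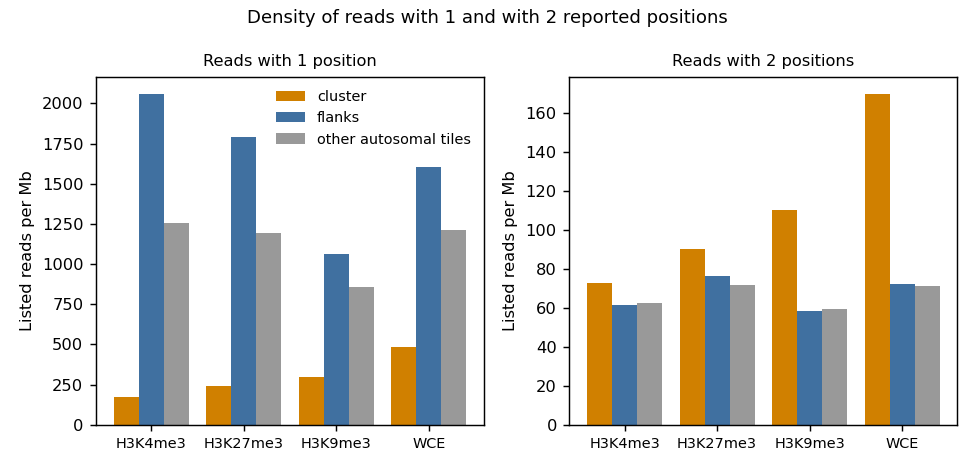
Reads per Mb with 1 reported position (left) and entries per Mb of reads with 2 positions (right) in the cluster, the flanks and the other autosomal tiles, for each library (bars start at 0, no replicates). With 1 position the cluster is lowest in all 4 libraries, and with 2 positions it is highest in all 4.

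Levels like those of the cluster were found elsewhere on the autosomes. Of 2378 autosomal megabases with at least 100 WCE reads, 2.31% to 15.2% had a lower H3K4me3 ratio than the 4 megabases of the cluster, 0.673% to 11.0% a lower H3K27me3 ratio and 13.6% to 73.8% a lower H3K9me3 ratio. The third megabase, with an H3K27me3 ratio of 0.439, had only 16 megabases below it. Outside the cluster, 539 megabases were taken for an H3K4me3 ratio of at most 0.5, which fixes their low H3K4me3. Their H3K27me3 ratios had a median of 0.553 (quartiles 0.507 and 0.621) and 304 were at or above the highest of the cluster, 0.540. Their H3K9me3 ratios had a median of 0.818 (quartiles 0.725 and 0.921), between the 0.767 and 1.05 of the cluster's lowest and highest megabase, and 45 reached 1.05 or more. Their WCE counts had a median of 628 reads, against 462 to 516 in the cluster. Among megabases poor in H3K4me3, the cluster thus lay within the range of the others for H3K27me3 and H3K9me3.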

How the data were processed

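ChIP-seq libraries of 3 marks and WCE were analysed. Per the labels' protocols, chromatin was sonicated to 500 bp on average, libraries had 18 PCR cycles and inserts measured 50 to 200 nt. The deposited files list signed read positions on mm8, aligned with Bowtie (e 70, k 2, m 2, n 2, l 36) per the file headers, as other values with no normalization. With these options reads that match more than 2 places are dropped, which bears on a duplicated region. Reads with 1 and with 2 positions are listed apart.

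Libraries held 2335857 to 3339861 reads with 1 position. Reads were kept once per position and strand, moved 60 bp and counted in tiles of 4 kb and bins of 100 kb (at least 20 reads). Ratios use autosomal totals and 95% exact intervals, or log-scale intervals for ratios of ratios. Without molecular identifiers, amplified reads cannot be taken as separate molecules, so intervals and p-values cover counting error only. Benjamini-Hochberg adjustment ran over all tiles or bins. A floor of 3 WCE reads replaced 0 when calling. Named tiles are those called, the 3 with the largest excess per mark, the 3 with most 2-position entries per library and the nearest called outside; named bins are the 3 highest and 3 lowest per mark. The region and these rules were chosen with earlier results of these data known. The calling was tested on simulated data, with enriched tiles placed only where WCE had at least 3 reads. The median cluster tile had 2 WCE reads, so that test did not cover most of the cluster. Alternatives changed scaling, repeats, tile size, thresholds, control and borders. The gene table is of another build, so no coordinates of it were used. Scripts ran in Python 3.11.15 with scipy 1.17.1 for tests, numpy 2.4.6 for counting and matplotlib 3.10.9 for plots.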

Additional observations from a re-analysis of the deposited data

How the results depend on the processing

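No paired analysis was possible because each group holds 1 library, and for the same reason no library could be left out. Of 171 recomputed values that answer a comparison, 154 were counted as unchanged. For ratios this means the same direction and side of the threshold. For counts of tiles or bins it means an equal or similar number, so 24 and 33 in place of 28 H3K27me3 bins below WCE were unchanged. So were 20 at 200 kb, where the cluster has only 20 bins. Some alternatives could hardly change a value. Moving reads 0 or 100 bp left the cluster ratios at 0.347 for H3K4me3, 0.508 for H3K27me3 and 0.869 for H3K9me3. A stricter adjusted p cannot add called tiles. The 154 is therefore no measure of how firm the results are. Called tiles in the cluster stayed at 0 for all marks under every alternative run, except 1 H3K9me3 tile against a uniform background. The cause of the following changes was not tested unless stated. The H3K9me3 ratio of cluster to flanks passed the test with reads of 1 and 2 positions summed (0.933), with the cluster drawn in by 500 kb on each side (0.886), in tiles with a WCE read (0.802, a choice that by construction drops tiles held by the mark alone), with the upper flank alone (0.906) and for the run of low WCE bins (0.913, added after the data were seen). It did not with the lower flank alone (0.970). The H3K9me3 ratio of 2-position entries no longer passed when scaled by totals of reads with 1 position (0.920). H3K27me3 over H3K4me3 turned to 0.914 outside called tiles. H3K4me3 bins below WCE numbered 18 with median scaling, 13 outside called tiles and 20 at 200 kb, where the cluster has only 20 bins. H3K27me3 bins below WCE numbered 14 with median scaling. H3K9me3 bins below WCE numbered 1 with repeats kept, 1 with both kinds of reads and 2 at 200 kb, and those above numbered 0 with repeats kept and 0 at 200 kb. With both kinds of reads, the first H3K27me3 bin of the cluster (0.653) and H3K9me3 in the second megabase (0.866) passed as below WCE. Among named bins, H3K4me3 at 88400001 turned to 0.410 with both kinds of reads, at 86300001 to 1.15 with median scaling and 1.14 outside called tiles, and at 89500001 to 1.0 with median scaling. The depth of about 2 WCE reads per cluster tile limits tile calls to large ratios.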
